A study of Homo sapiens with 4 samples.

Results

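A set of 10 genes that belong to the cellular answer to low oxygen, or to the growth of vessels that goes with it, was followed in A549 cells, a human lung adenocarcinoma line. They were HIF1A, VEGFA, VEGFC, ADM, CA9, NDRG1, SLC2A1, PDK1, BNIP3 and LDHA, taken by gene symbol. Probe sets carried 9 of the 10 symbols in the table that pairs probe sets with genes, and CA9, a membrane carbonic anhydrase, was not analysed here. The 9 genes had 16 probe sets among 54613, and the probe set with the highest mean signal stood for each gene. All 9 were among the 12521 of 19775 genes counted as expressed, meaning that the brightest probe set had a mean signal of 66.3 or more, the median over the table.

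The study asked which nicotine-responsive genes in A549 cells depend on β-arrestin-1, encoded by ARRB1, a scaffold protein that desensitizes activated receptors and carries their signals onward. RNA was hybridized to 4 Affymetrix Human Genome U133 Plus 2.0 arrays, with 1 array for each condition. The conditions were cells transfected with ARRB1 siRNA and stimulated with nicotine, cells with ARRB1 siRNA that were serum starved and left untreated, cells with a non-targeting control siRNA and nicotine, and serum starved, untreated cells with control siRNA. Nicotine was used at 1 µM for 24 h after 36 h without serum, so all cells had been transfected and starved. The labels name the siRNA target only as beta arrestin, and name no hypoxic treatment and no oxygen level. The knockdown was transient and in a single cell line, and with 1 array in each condition there was no replicate, and no p-value is given for any gene.

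HIF-1 is a transcription factor made of an oxygen-regulated subunit, HIF-1α, and a stable partner, ARNT. With enough oxygen, prolyl hydroxylases of the EGLN family mark HIF-1α for the VHL ubiquitin ligase and the protein is degraded, while in hypoxia it accumulates and binds short sequence elements near its target genes. The targets include glucose carriers and glycolytic enzymes, regulators of mitochondria, and secreted factors such as VEGFA and adrenomedullin that act on vessels. β-Arrestin-1 has been reported to support HIF-1 signalling. HIF-1α is regulated mainly as a protein, and the arrays measured RNA only.

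The core of the hypoxia response element was searched for as ACGTG or GCGTG on either strand in the 250 bases upstream of RefSeq start sites (GRCh38.p14). Windows of 8 of the 10 genes were used, 11 windows in all. No window was given for VEGFA, and none was used for NDRG1, so the counts of the members leave out both genes. A match was found in 8 of the 11 windows (72.7%), while 43.2% of 35116 windows of all genes held one. The windows of 3 genes are shown because VEGFC had the largest difference on the arrays and because LDHA and BNIP3 had the most matches, 5 and 6, against 1 for VEGFC. Each window is printed 5′ to 3′ along the strand of its gene with the matches in capitals, where a match on the opposite strand reads CACGT or CACGC and CACGTG counts on both strands. The windows lie at chr4:176792923-176793172 (VEGFC, minus strand), chr11:18394313-18394562 (LDHA, plus strand) and chr10:131981924-131982173 (BNIP3, minus strand).
VEGFC: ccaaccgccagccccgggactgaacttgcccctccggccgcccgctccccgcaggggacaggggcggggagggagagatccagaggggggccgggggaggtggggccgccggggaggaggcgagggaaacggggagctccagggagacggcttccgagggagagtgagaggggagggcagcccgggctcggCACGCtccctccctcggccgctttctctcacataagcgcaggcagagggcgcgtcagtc
LDHA: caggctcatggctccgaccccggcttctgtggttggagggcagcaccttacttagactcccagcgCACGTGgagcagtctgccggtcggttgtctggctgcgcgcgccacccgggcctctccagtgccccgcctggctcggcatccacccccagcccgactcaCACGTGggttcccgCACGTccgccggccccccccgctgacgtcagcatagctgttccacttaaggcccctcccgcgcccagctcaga
BNIP3: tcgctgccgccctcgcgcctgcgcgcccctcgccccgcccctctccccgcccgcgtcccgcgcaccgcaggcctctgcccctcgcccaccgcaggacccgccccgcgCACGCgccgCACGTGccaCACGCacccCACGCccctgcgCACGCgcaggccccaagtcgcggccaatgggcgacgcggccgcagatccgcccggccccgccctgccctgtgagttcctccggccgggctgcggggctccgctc
Counted from the start site, the VEGFC match ended at -55, the BNIP3 matches ran from -143 to -100 and the LDHA matches from -185 to -69. A second LDHA window, 1 of 2 PDK1 windows, 1 of 2 HIF1A windows and the ADM and CA9 windows held 1 or 2 matches each, and SLC2A1 held none. These letters are common in promoters, and a match is a description of the sequence only.

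The 4 arrays had been scaled alike, with a trimmed mean of 500.1 and medians between 68.6 and 73.3. ARRB1 itself read 224 with ARRB1 siRNA and 331 with control siRNA in nicotine treated cells, and 191 with ARRB1 siRNA and 352 with control siRNA in serum starved cells (probe set 43511_s_at). It was thus lower by 0.56 and 0.88 on the log2 scale, and 6 of its 7 probe sets were lower with ARRB1 siRNA in both treatments, the exception being 221861_at. Of the lower ones, 218832_x_at and 228444_at were below the median signal. All 6 epithelial markers looked for were expressed, none of the 3 measured leukocyte markers was, and of the endothelial markers only PECAM1 reached the median signal, with VWF, CDH5 and KDR below it. The 3 measured alveolar type 2 markers and 2 of 4 fibroblast markers (COL1A1 and DCN) reached it too. At a limit of 2-fold, the one named by the submitters, 0.879% of expressed genes were higher and 1.4% lower with ARRB1 siRNA in nicotine treated cells. In serum starved cells 1.01% were higher and 0.783% lower. The balance between higher and lower genes moved with the scaling: with ARRB1 siRNA in nicotine treated cells it was 110 to 175 as deposited and 148 to 142 after centring each array on its median, and in serum starved cells it was 127 to 98 as deposited and 111 to 131 after centring.

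ARRB1 siRNA was first compared with control siRNA, to see whether lower ARRB1 RNA went with lower RNA of hypoxia-responsive genes. ARRB1 RNA was lowered only in part, to 0.68 of control under nicotine and 0.54 in serum starved cells on its brightest probe set. VEGFC rose with ARRB1 siRNA under nicotine, by 1.08 on the log2 scale, and was the only gene of the 9 past the 2-fold limit in either treatment. No gene of the 9 fell past the limit with ARRB1 siRNA in either treatment. In RNA from whole cultures, fewer cells that express a gene and less RNA per cell cannot be told apart. The median log2 difference of the 9 genes was 0.16 under nicotine, where the median over all expressed genes was 0.02, and 0.13 in serum starved cells, again beside 0.02 over all. With ARRB1 siRNA 7 of the 9 were above control siRNA in each treatment, and VEGFA and ADM were slightly below it in both. Under nicotine 52.2% of expressed genes were above 0, and in serum starved cells 52.4%. The same 7 genes were above it in both treatments, a pattern that 34.6% of expressed genes had. The count above 0 depended on scaling. After centring it was 9 of 9 under nicotine, where 63.9% of all expressed genes were then above 0, and 6 of 9 in serum starved cells, where 40.5% were. After quantile normalization it was 6 of 9 beside 54.2% of expressed genes under nicotine, and 8 of 9 beside 52.1% in serum starved cells. The medians of the 9 genes were then 0.075 under nicotine and 0.094 in serum starved cells, beside 0.027 and 0.014 over all expressed genes. After centring these medians were 0.250 and 0.057, beside 0.103 and -0.060.

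**Figure D1:**
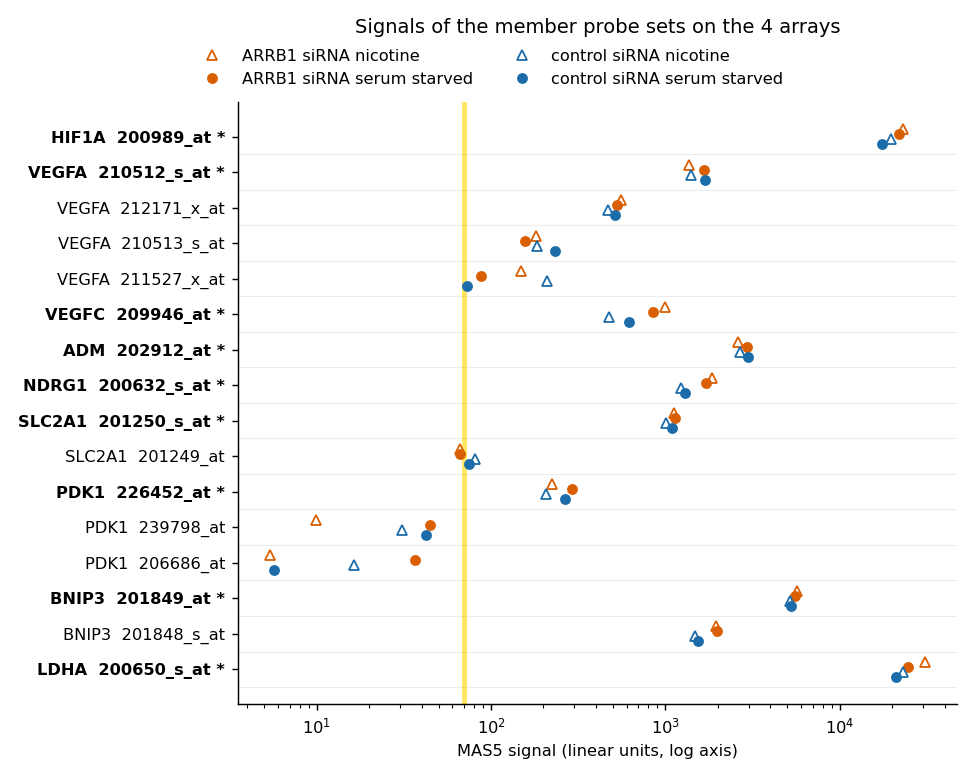
MAS5 signal (log axis) of the 16 probe sets of the 9 genes on the 4 arrays, with the brightest probe set of each gene in bold with a star and the range of the 4 array medians as a yellow band. For VEGFC and NDRG1 both ARRB1 siRNA arrays (orange) lie to the right of both control siRNA arrays (blue). The same holds by narrower margins for the brightest probe sets of HIF1A, LDHA, BNIP3 and SLC2A1. For ADM and the brightest VEGFA probe set the symbols of both siRNAs lie close together within each treatment.

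VEGFC is a secreted growth factor for lymphatic and blood vessels that signals mainly through FLT4, and its gene lies at chr4:176683538-176792922 (GRCh38.p14). In nicotine treated cells its signal was 1002 with ARRB1 siRNA and 474 with control siRNA. In serum starved cells it was 847 with ARRB1 siRNA and 621 with control siRNA. The ARRB1 siRNA arrays were therefore the 2 highest of the 4, and the control siRNA array with nicotine was the lowest. The log2 difference under nicotine was 1.08, where the 1000 probe sets nearest in mean signal had a median of -0.03 and an SD of 0.33. Of the 12521 expressed genes, 84 (0.671%) had a difference as high or higher in this pair. In serum starved cells the log2 difference was 0.45, with an SD of 0.32 among similar probe sets, and 8.3% of expressed genes reached it. The difference with siRNA was larger under nicotine by 0.63 on the log2 scale, which has no test with 1 array per condition. VEGFC has 1 probe set (209946_at), so no other measurement of it was available on the same arrays.

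NDRG1, a cytoplasmic protein induced by hypoxia, metals and differentiation, was the other gene that lay more than 1 SD from the median of similar probe sets in both treatments. Its signal under nicotine was 1840 with ARRB1 siRNA and 1235 with control siRNA. In serum starved cells it was 1716 with ARRB1 siRNA and 1288 with control siRNA. Both ARRB1 siRNA arrays were above both control siRNA arrays, as for VEGFC, and nicotine made little difference within either siRNA. The same order of arrays held, by narrower margins, for the brightest probe sets of HIF1A, LDHA, BNIP3 and SLC2A1. The share of all expressed genes with this order was not counted. For NDRG1 the log2 differences were 0.57 under nicotine (SD of similar probe sets 0.29) and 0.41 in serum starved cells (SD 0.26). Both were below the 2-fold limit. Among expressed genes 3.95% reached the difference under nicotine and 9.61% that in serum starved cells. NDRG1 is also read by 1 probe set only (200632_s_at).

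**Figure D2:**
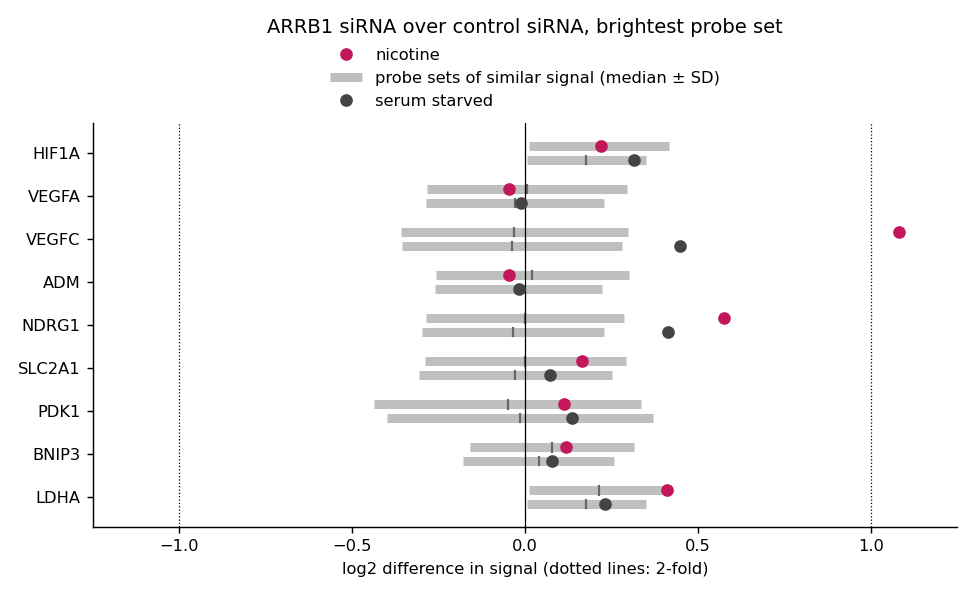
Log2 difference of ARRB1 siRNA over control siRNA for the brightest probe set of each gene, in nicotine treated (pink) and serum starved (grey) cells, with grey bars for the median ± SD of the 1000 probe sets nearest in mean signal and dotted lines at 2-fold. VEGFC under nicotine (1.08) lies beyond the 2-fold line, VEGFC and NDRG1 lie to the right of the grey bars in both treatments, and the other 7 genes lie within or at the edge of them.

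HIF1A and LDHA were among the brightest probe sets of the arrays. HIF1A encodes the oxygen-regulated subunit itself and lies at chr14:61695513-61748258, and LDHA, at chr11:18394563-18408425, encodes the lactate dehydrogenase subunit that turns pyruvate into lactate. HIF1A read 22999 with ARRB1 siRNA and 19750 with control siRNA under nicotine, and 21815 with ARRB1 siRNA and 17534 with control siRNA in serum starved cells. LDHA read 30753 with ARRB1 siRNA and 23156 with control siRNA under nicotine, and 24619 with ARRB1 siRNA and 20980 with control siRNA in serum starved cells. Neither gene was lower with ARRB1 siRNA on the deposited scale. The log2 differences under nicotine were 0.22 for HIF1A and 0.41 for LDHA, and in serum starved cells 0.32 for HIF1A and 0.23 for LDHA.

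The brightest probe sets were higher with ARRB1 siRNA as a whole. Of the 1000 probe sets nearest to HIF1A in signal, which were the same for LDHA, 86.3% were above 0 under nicotine with a median of 0.21, and 87.3% were above 0 in serum starved cells with a median of 0.18. The 99th percentile of the signals was 13716 with ARRB1 siRNA and 12319 with control siRNA under nicotine, and 12714 with ARRB1 siRNA and 11554 with control siRNA in serum starved cells. After quantile normalization, which gives all arrays the same distribution, HIF1A differed by -0.07 under nicotine and 0.09 in serum starved cells, and LDHA by 0.08 under nicotine and -0.02 in serum starved cells. The direction for HIF1A and LDHA was thus not the same in every scaling. VEGFC and NDRG1, with mean signals of 707 and 1497, differed by 1.13 and 0.59 under nicotine after the same normalization, and by 0.49 and 0.45 in serum starved cells.

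**Figure D3:**
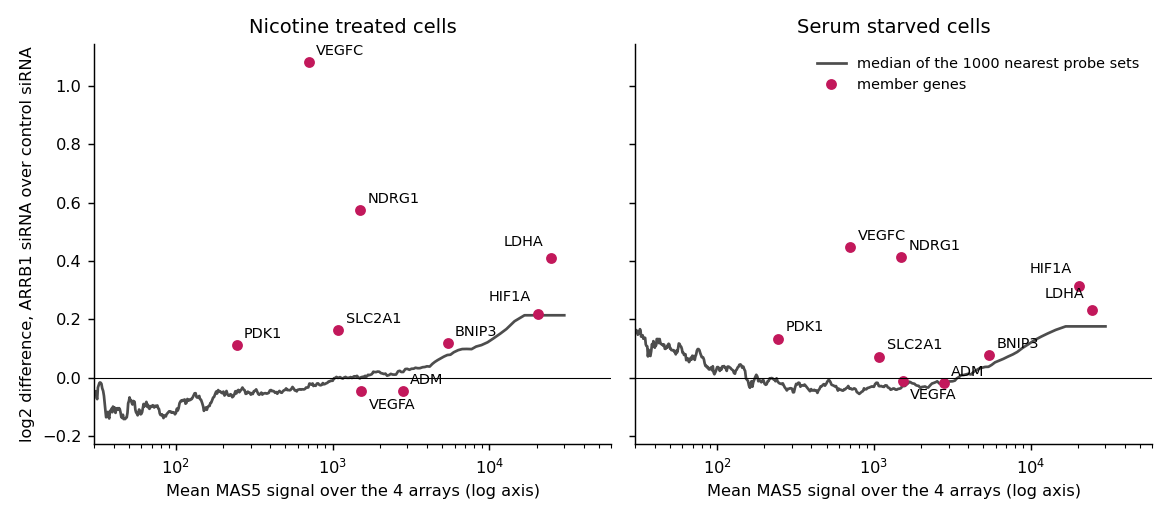
Log2 difference of ARRB1 siRNA over control siRNA against mean signal over the 4 arrays (log axis), for nicotine treated cells on the left and serum starved cells on the right, with the members as points and the median of the 1000 nearest probe sets as a line. The line climbs to 0.21 and 0.18 at the bright end, where HIF1A and LDHA lie, while VEGFC and NDRG1 lie well above it in both panels.

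VEGFA, the main growth factor for blood vessel endothelium (chr6:43770211-43786487), and ADM, a vasodilating peptide (chr11:10305073-10307397), hardly differed between the siRNAs. The brightest VEGFA probe set read 1368 with ARRB1 siRNA and 1413 with control siRNA under nicotine, and 1671 with ARRB1 siRNA and 1684 with control siRNA in serum starved cells. ADM read 2610 with ARRB1 siRNA and 2695 with control siRNA under nicotine, and 2958 with ARRB1 siRNA and 2997 with control siRNA in serum starved cells. For both genes the log2 difference was -0.05 under nicotine, and in serum starved cells it was -0.01 for VEGFA and -0.02 for ADM, with SDs of similar probe sets between 0.24 and 0.29. The sign of such small values turned with the scaling: both were 0.04 under nicotine after centring, and 0.03 for VEGFA and 0.01 for ADM in serum starved cells after quantile normalization.

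The other VEGFA probe sets did not move together. Probe set 212171_x_at differed by 0.24 under nicotine and 0.04 in serum starved cells, 210513_s_at by -0.03 under nicotine and -0.56 in serum starved cells, and 211527_x_at by -0.49 under nicotine and 0.26 in serum starved cells. These 3 were dimmer than the representative probe set, and the SD of similar probe sets was as high as 0.52 for 211527_x_at. VEGFA is spliced into several isoforms, and which of them each probe set reads was not examined.

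Among the metabolic genes, SLC2A1 encodes the glucose carrier GLUT1, PDK1 a kinase that shuts off pyruvate dehydrogenase, and BNIP3 a mitochondrial protein of mitophagy and cell death. SLC2A1 (chr1:42925353-42958868) read 1122 with ARRB1 siRNA and 1003 with control siRNA under nicotine, and 1142 with ARRB1 siRNA and 1085 with control siRNA in serum starved cells. PDK1 (chr2:172555373-172724312) read 223 with ARRB1 siRNA and 207 with control siRNA under nicotine, and 292 with ARRB1 siRNA and 267 with control siRNA in serum starved cells. BNIP3 (chr10:131967684-131981923) read 5674 with ARRB1 siRNA and 5223 with control siRNA under nicotine, and 5572 with ARRB1 siRNA and 5281 with control siRNA in serum starved cells. All 6 log2 differences lay between 0.07 and 0.16, within the SD of similar probe sets, which was between 0.22 and 0.39.

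Second probe sets bore on these values in different ways. The dimmer BNIP3 probe set, 201848_s_at, read 1965 with ARRB1 siRNA and 1485 with control siRNA under nicotine, and 1990 with ARRB1 siRNA and 1540 with control siRNA in serum starved cells. Its differences of 0.40 and 0.37 were past the SD of similar probe sets (0.28 and 0.25), and larger than those of the brighter BNIP3 probe set, 0.12 and 0.08. The dimmer SLC2A1 probe set, 201249_at, was near the array median and differed by -0.29 under nicotine and -0.17 in serum starved cells. Both other PDK1 probe sets were below the median signal, where the SD of similar probe sets was over 1.1 on the log2 scale, and their differences ran from -1.65 to 2.70.

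Nicotine treated cells were compared next with serum starved cells, within each siRNA. The labels do not say whether the serum starved cells were kept for the same further 24 h, so nicotine and time in culture cannot be told apart in these comparisons. On its brightest probe set no gene of the 9 passed the 2-fold limit in either siRNA. At that limit nicotine went with higher signals for 0.495% of expressed genes and lower signals for 0.958% in ARRB1 siRNA cells, and the shares in control siRNA cells were 0.719% and 0.335%. After centring, these counts were 84 higher and 92 lower genes with ARRB1 siRNA, against 62 and 120 as deposited, and 70 higher and 60 lower with control siRNA, against 90 and 42. The median log2 difference of the 9 genes was 0.03 with ARRB1 siRNA and -0.11 with control siRNA, while over all expressed genes it was -0.01 with ARRB1 siRNA and -0.02 with control siRNA. With nicotine 4 of 9 were below 0 with ARRB1 siRNA and 7 of 9 with control siRNA, where 51.9% and 55.6% of all expressed genes were. These counts also depended on scaling. After centring they were 3 of 9 and 7 of 9, beside 40.5% and 73.2% of expressed genes. After quantile normalization they were 6 of 9 and 8 of 9, beside 51.1% and 57.1%. The medians of the 9 genes were then -0.021 with ARRB1 siRNA and -0.098 with control siRNA, and 0.095 and -0.209 after centring. These nicotine comparisons use the same 4 arrays as the siRNA comparisons, so they are another view of the values above and no separate evidence.

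The brightest probe sets of PDK1, VEGFA and ADM read lower with nicotine in both siRNAs, by small amounts. The nicotine arrays of PDK1 read 223 against 292 in serum starved cells with ARRB1 siRNA, a log2 difference of -0.39, and 207 against 267 with control siRNA, a difference of -0.37. VEGFA read 1368 with nicotine against 1671 without with ARRB1 siRNA, and 1413 against 1684 with control siRNA, or -0.29 and -0.25 on the log2 scale. For VEGFA and PDK1 these values were just past the SD of similar probe sets, which for VEGFA was 0.23 with ARRB1 siRNA and 0.18 with control siRNA, and for PDK1 was 0.35 and 0.32. For ADM the differences were -0.18 with ARRB1 siRNA and -0.15 with control siRNA. The dimmer VEGFA probe set 211527_x_at read 209 with nicotine against 73 without with control siRNA. This log2 difference of 1.51 (SD of similar probe sets 0.45) was past 2-fold, from a serum starved signal near the array medians. With ARRB1 siRNA it differed by 0.765 (SD 0.48). Probe sets 212171_x_at and 210513_s_at differed by 0.06 and 0.19 with ARRB1 siRNA, and by -0.14 and -0.34 with control siRNA. The median of the 4 VEGFA probe sets was 0.13 with ARRB1 siRNA, opposite in sign to the brightest one, and -0.20 with control siRNA. PDK1, VEGFA, ADM and SLC2A1 made up the 4 of 9 genes below 0 in both siRNAs, a pattern that 31.1% of expressed genes had.

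VEGFC was the only gene whose nicotine difference had opposite signs beyond 0.2 in the 2 siRNAs. It read 1002 with nicotine against 847 in serum starved cells with ARRB1 siRNA, a log2 difference of 0.24, which is within the SD of similar probe sets (0.29). With control siRNA it read 474 with nicotine against 621 in serum starved cells, a difference of -0.39 with an SD of 0.24, and 4.82% of expressed genes were as low or lower. The gap between the siRNAs under nicotine thus held the gap of 0.45 already present in serum starved cells. Added to it were a higher nicotine value with ARRB1 siRNA, within that SD, and a lower one with control siRNA. HIF1A differed with nicotine by 0.08 with ARRB1 siRNA and 0.17 with control siRNA, and LDHA by 0.32 with ARRB1 siRNA and 0.14 with control siRNA, and the probe sets of their brightness had medians of 0.15 and 0.11. NDRG1, SLC2A1 and BNIP3 differed by between -0.11 and 0.10.

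**Figure D4:**
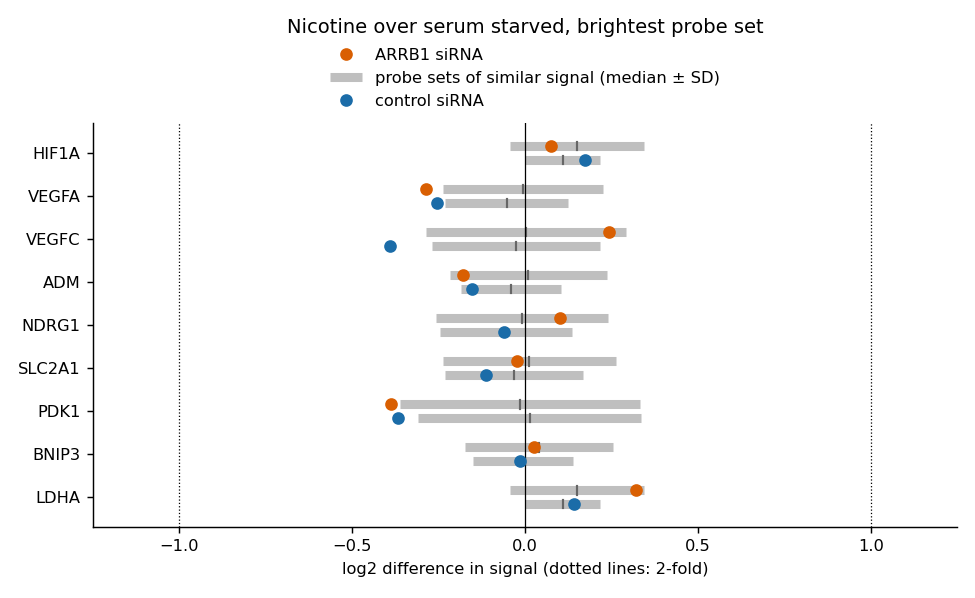
Log2 difference of nicotine over serum starved for the brightest probe set of each gene, with ARRB1 siRNA (orange) above control siRNA (blue), grey bars for the median ± SD of the 1000 probe sets nearest in mean signal and dotted lines at 2-fold. No gene reaches 2-fold, PDK1 and VEGFA lie to the left of their bars in both siRNAs, and VEGFC lies left of 0 with control siRNA (-0.39) and right of it with ARRB1 siRNA (0.24).

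The wider pathway was then followed in 5 lists that contain the members and their partners. In the machinery that controls HIF, with 14 of 16 genes expressed, none passed 2-fold in any of the 4 comparisons, and the median difference with ARRB1 siRNA was -0.10 under nicotine and 0.02 in serum starved cells. ARNT2, a paralog of the HIF partner ARNT, read 325 with ARRB1 siRNA and 575 with control siRNA under nicotine, and 339 with ARRB1 siRNA and 548.97 with control siRNA in serum starved cells, differences of -0.82 and -0.70. ARNT itself read 289 with ARRB1 siRNA and 478 with control siRNA under nicotine, and 400 with ARRB1 siRNA and 392 with control siRNA in serum starved cells, differences of -0.72 under nicotine and 0.03 without it. EGLN3, a hydroxylase that HIF itself induces, differed by -0.45 in both treatments. HIF1AN, the asparagine hydroxylase that blocks HIF from its co-activators, differed by 0.46 under nicotine and 0.18 in serum starved cells, and EPAS1, the alternative HIF subunit HIF-2α, by 0.27 and -0.10. VHL differed by -0.34 under nicotine and 0.24 in serum starved cells. The SDs of similar probe sets for these genes lay between 0.19 and 0.45.

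Of the glycolysis genes 22 of 25 were expressed and none passed 2-fold in any of the 4 comparisons. Most of them were above 0 with ARRB1 siRNA on the deposited scale, 17 of 22 under nicotine with a median of 0.25 and 18 of 22 in serum starved cells with a median of 0.17. Of all expressed genes 52.2% and 52.4% were above 0. Among the 1000 probe sets nearest to LDHA in signal the shares were 86.3% and 87.3%. After centring 18 and 15 of 22 were above 0, with medians of 0.338 and 0.094, beside 63.9% and 40.5% of expressed genes. Many are among the brightest probe sets, and after quantile normalization the medians were 0.04 under nicotine and 0.06 in serum starved cells. Then 15 and 14 of 22 were above 0, beside 54.2% and 52.1% of expressed genes. PFKFB4, which makes the regulator that drives phosphofructokinase, differed by 0.63 under nicotine and 0.15 in serum starved cells, and the glucose carrier SLC2A3 by 0.49 and 0.07. GPI, the enzyme after hexokinase, differed by 0.31 and 0.36. PFKFB3, a paralog of PFKFB4, was at -0.37 under nicotine and -0.31 in serum starved cells, ENO2 at -0.38 and -0.32, and PDK3 at -0.17 and -0.38. ALDOC had the highest value in serum starved cells, 0.86, but was at -0.23 under nicotine.

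Of the other HIF targets 31 of 34 were expressed, again with none past 2-fold, and their medians with ARRB1 siRNA were 0.03 under nicotine and -0.01 in serum starved cells. Under nicotine 16 of 31 were above 0, beside 52.2% of all expressed genes. After centring 23 of 31 were, but centring added 0.09 to every gene in this comparison and put 63.9% of expressed genes above 0. P4HA2, a collagen prolyl hydroxylase, read 1074 with ARRB1 siRNA and 1678 with control siRNA under nicotine, and 1119 with ARRB1 siRNA and 2035 with control siRNA in serum starved cells, differences of -0.64 and -0.86. EGLN3, at -0.45, was the second lowest of the list in both treatments. PLOD2, a collagen lysyl hydroxylase, went the other way, with 0.39 under nicotine and 0.44 in serum starved cells. PPP1R3C, a regulator of glycogen synthesis, differed by 0.57 under nicotine and 0.09 in serum starved cells. NDRG1, with 0.57 and 0.41, stood at the high end of this list in both treatments.

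Among angiogenic ligands, receptors and inhibitors 21 of 29 genes were expressed, and 2 of them passed 2-fold with ARRB1 siRNA under nicotine. VEGFC, the member described above, was higher, and SERPINF1, the secreted angiogenesis inhibitor PEDF, was lower. Of all expressed genes 0.879% were higher and 1.4% lower past that limit in this comparison. SERPINF1 read 71 with ARRB1 siRNA and 209 with control siRNA under nicotine, a log2 difference of -1.56 with an SD of similar probe sets of 0.49, and 113 with ARRB1 siRNA and 155 with control siRNA in serum starved cells, a difference of -0.45. Its lowest signal was close to the array medians. The medians of the list were -0.05 under nicotine and -0.01 in serum starved cells. ANG, the ribonuclease angiogenin, differed by -0.83 under nicotine and -0.25 in serum starved cells. PDGFA differed by -0.37 under nicotine and -0.52 in serum starved cells, PDGFB by 0.47 and 0.10, and the arterial ephrin EFNB2 by 0.41 and 0.72. The SDs of similar probe sets under nicotine and in serum starved cells were 0.51 and 0.48 for PDGFB, and 0.55 and 0.56 for EFNB2. The lowest EFNB2 signal, 76 with control siRNA under nicotine, was close to the array medians. Of the receptors of the vessel wall FLT1 was expressed, above the array median on all 4 arrays, and FLT4, KDR, TEK and TIE1 were below the median signal. NRP1 and NRP2, receptors of the same list, were also expressed and were brighter than FLT1 on all 4 arrays.

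In the adrenomedullin system 3 of 6 genes were expressed, ADM, its paralog ADM2 and the receptor partner RAMP1. With ARRB1 siRNA their median difference was 0.31 under nicotine and -0.02 in serum starved cells, and none of the 3 passed 2-fold. RAMP1 read 69 with nicotine against 140 in serum starved cells with control siRNA, a log2 difference of -1.02, and 101 against 139 with ARRB1 siRNA, a difference of -0.46. CALCRL, the receptor that RAMP proteins serve, was below the median signal, with RAMP2 and RAMP3. On brightest probe sets RAMP1 was the only expressed gene of the 5 lists past 2-fold in a nicotine comparison. In control siRNA cells 0.335% of all expressed genes were lower past that limit.

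**Figure D5:**
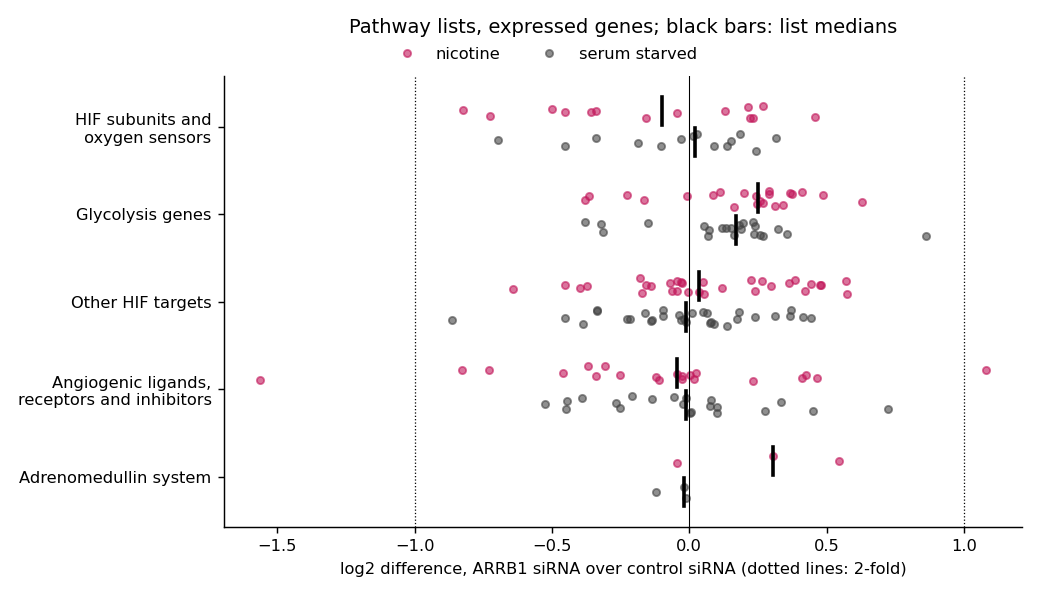
Log2 difference of ARRB1 siRNA over control siRNA for the expressed genes of the 5 lists, in nicotine treated (pink) and serum starved (grey) cells, with list medians as black bars, dotted lines at 2-fold and vertical scatter added for legibility. The points beyond 2-fold are SERPINF1 at -1.56 and VEGFC at 1.08, both under nicotine, and the glycolysis medians lie at 0.25 and 0.17.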

How the data were processed

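RNA of 4 A549 conditions was hybridized to U133 Plus 2.0 arrays, 1 array per condition, from 100 ng of total RNA each. The authors deposited MAS5 signal intensities on a linear scale, made in GCOS 1.4 by the submitters' processing notes and scaled to a common trimmed mean. The labels and the methods speak of a log2 transformation, which these values do not hold. Detection calls were not used here. MAS5 subtracts mismatch signal, so dim probe sets vary most, and 1 array per condition limits the precision of every value.

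Of 54675 probe sets 62 control probe sets were left out. In the table of probe sets and genes, 41091 probe sets were paired with 1 symbol, 1801 with several and 11721 with no symbol, and genes were taken from probe sets with 1 symbol. Pairs of arrays were compared as log2 differences with no pseudocount (pandas 2.3.3 and numpy 2.4.6 under Python 3.11.15), and the code was tested on simulated data. Figures were drawn with matplotlib 3.10.9. The spread beside each value is the SD of the log2 differences of the 1000 probe sets nearest in mean log2 signal. It includes real differences between genes and is not a replicate error. In place of a test, members were counted past 2-fold beside the share of all expressed genes past the same limit. Alternatives were array centring, quantile normalization, a floor at the 25th percentile or the median, leaving out probe sets whose names end in _x_at, limits of 1.5-fold and 3-fold, and the median of each gene's probe sets. Gene positions and upstream windows came from RefSeq (GRCh38.p14).

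The members and the lists were chosen with earlier results of these data known. Apart from the members and ARRB1, genes of the lists were named where an expressed gene passed 2-fold in any comparison, or where it had 1 of the 2 highest or 2 lowest differences of its list in a comparison of the siRNAs. The wider results of that rule are not all printed. FLT1, KDR, TEK, TIE1, FLT4, NRP1, NRP2, CALCRL, RAMP2 and RAMP3 were named outside it, as receptors or receptor partners in the lists. Cell type markers come from lists of their own.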

Additional observations from a re-analysis of the deposited data

How the results depend on the processing

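The 9 genes in 4 comparisons gave 36 log2 differences. Both floors and leaving out _x_at probe sets could not change any of them, since each gene's brightest probe set was above the floors and none was an _x_at probe set. Centring turned the sign of 4 small values and moved none of the 36 by the SD of similar probe sets, quantile normalization turned 7 signs, and the median over probe sets, which altered 14 of the 36, turned 6. After quantile normalization the sign turned for LDHA with ARRB1 siRNA in serum starved cells (-0.015), HIF1A with ARRB1 siRNA under nicotine (-0.074) and LDHA with nicotine in control siRNA cells (-0.056), and for HIF1A with nicotine in ARRB1 siRNA cells (-0.154), with small values of VEGFA, ADM and BNIP3 making up the rest. With the median over probe sets VEGFA with nicotine in ARRB1 siRNA cells turned to 0.126. Under the same quantile normalization HIF1A moved to 0.094 in the comparison of siRNAs without nicotine, and to 0.014 with nicotine in control siRNA cells, and LDHA moved to 0.075 with ARRB1 siRNA under nicotine and 0.034 with nicotine in ARRB1 siRNA cells.

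VEGFC stayed past 2-fold with ARRB1 siRNA under nicotine after centring and quantile normalization, and with a limit of 3-fold the count of genes higher was 0. With the median over probe sets PDK1, through dim probe sets, was past 2-fold lower with ARRB1 siRNA under nicotine (count 1, -1.60, against 0.11 for its brightest probe set) and with nicotine in ARRB1 siRNA cells (count 1, -2.17). The cause was not tested. Medians and signs of the members and lists under the scalings were added after seeing the data. The labels hold no replicate numbers that pair arrays, so no fit with a replicate block was made, and leaving out an array would remove a comparison. Without the filter on expressed genes the share past 2-fold with ARRB1 siRNA was 7.88% higher and 8.76% lower under nicotine, and 9.16% higher and 6.28% lower in serum starved cells, over 19775 genes. Signal near the median limits RAMP1, SERPINF1, EFNB2, the VEGFA probe set 211527_x_at and the dim PDK1 and SLC2A1 probe sets.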

Other observations

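CA12, a membrane carbonic anhydrase related to CA9 and also a HIF target, was among the bright probe sets. It read 21014 with ARRB1 siRNA and 17472 with control siRNA under nicotine, and 17640 with ARRB1 siRNA and 16026 with control siRNA in serum starved cells. The differences were 0.27 under nicotine and 0.14 in serum starved cells on the log2 scale. Probe sets of this brightness had medians of 0.21 under nicotine (SD 0.20) and 0.18 in serum starved cells (SD 0.17). Both CA12 values lay within that spread, and the one in serum starved cells was below the median. The name of the CA12 probe set ends in _x_at. CA12 was chosen after its values were seen, to show a related enzyme in the place of CA9.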
